A study of Mus musculus with 16 samples.

Results

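The genes of cholesterol synthesis and its control by the transcription factor SREBP2 were followed in mouse bone marrow-derived macrophages given the REV-ERB agonist SR9009, bacterial lipopolysaccharide (LPS), or both. The 26 genes were taken by symbol from a count table of 56748 genes, and all 26 were found and passed the filter on low counts, which left 13438 genes. They are 19 enzymes, 4 genes of SREBP2 control, and 3 genes of sterol transport and storage. The genes were listed by function, though with earlier results of these data known. Enzymes of the pathway outside this list and the lists named below were not analysed here.

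The cells came from the bone marrow of 4 wild type male C57BL6 mice and were grown into macrophages with supernatant of L929 cells, a fibroblast line that secretes the macrophage growth factor CSF1. Each mouse gave 1 library to each of 4 groups, so the groups hold the same 4 animals. The DMSO group had the vehicle, and the SR9009 group had 10 µM SR9009 for 16 hours. SR9009 is a small molecule that activates REV-ERBα and REV-ERBβ, nuclear receptors that repress transcription as parts of the circadian clock. The LPS group had 100 ng/mL LPS, a Toll-like receptor 4 ligand, for 6 hours, and the fourth group had SR9009 followed by LPS at the same doses and times. The labels of the LPS group do not say whether it also had DMSO overnight. If it had not, LPS versus DMSO, SR9009 with LPS versus LPS, and the interaction would include a difference in vehicle.

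Cholesterol is built in the cytosol and endoplasmic reticulum from acetyl-CoA through mevalonate, isoprenoid diphosphates, squalene and lanosterol. When sterols in the endoplasmic reticulum fall, SCAP carries SREBP2 to the Golgi, where it is cut and freed to enter the nucleus and switch on the genes of the pathway. When sterols are high, the INSIG proteins hold SCAP and SREBP2 back, and in macrophages the oxysterol 25-hydroxycholesterol is one of the sterols that does so.

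Total counts ran from 12616442 to 24214863 per library. The SR9009 library of mouse 1 stood apart: it had the lowest total and the fewest detected genes, 13298 against 16419 to 18947 in the other libraries. Where it is part of a compared group, each estimate given for a member also stands without it. The summed level of 9 macrophage markers was 5631 to 11616 CPM (counts scaled to library size) in every library, and the summed markers of each of 7 other cell types stayed at or below 1.84 CPM. In bulk RNA, fewer cells of a type and less RNA per cell cannot be told apart.

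RefSeq windows of 300 bases around the start site (250 before it and 50 after it, GRCm38.p6) matched 21 of the 26 genes. The 250 bases before the start are shown for Hmgcs1, the member that LPS raised most, and for Lss and Dhcr7, the members that passed the test when SR9009 was added to LPS. Dhcr7 has 3 windows in RefSeq, of which 2 that do not overlap are shown. Capitals mark a sterol regulatory element (SRE, TCACNCCAC), an NF-Y box (CCAAT, which reads ATTGG from the other strand) or the core of the element that ROR and REV-ERB proteins bind (TAGGTCA).
Hmgcs1, chr13:119690101-119690350, plus strand: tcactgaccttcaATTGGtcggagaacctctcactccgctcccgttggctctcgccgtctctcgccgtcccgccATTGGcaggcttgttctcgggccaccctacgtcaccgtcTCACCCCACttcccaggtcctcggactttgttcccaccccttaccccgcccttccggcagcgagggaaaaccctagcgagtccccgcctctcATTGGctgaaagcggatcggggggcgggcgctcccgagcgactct
Lss, chr10:76531355-76531604, plus strand: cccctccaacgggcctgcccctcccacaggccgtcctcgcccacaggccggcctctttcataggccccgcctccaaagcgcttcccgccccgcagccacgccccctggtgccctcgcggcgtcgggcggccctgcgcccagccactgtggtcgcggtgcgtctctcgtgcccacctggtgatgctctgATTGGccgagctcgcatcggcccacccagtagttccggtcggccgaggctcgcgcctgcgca
Dhcr7, chr7:143829964-143830213, plus strand: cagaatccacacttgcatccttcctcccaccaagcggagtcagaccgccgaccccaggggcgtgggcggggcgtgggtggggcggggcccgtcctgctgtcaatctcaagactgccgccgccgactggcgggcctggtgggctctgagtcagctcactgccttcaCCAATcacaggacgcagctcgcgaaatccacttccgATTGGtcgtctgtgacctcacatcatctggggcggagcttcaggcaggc
Dhcr7, chr7:143823149-143823398, plus strand: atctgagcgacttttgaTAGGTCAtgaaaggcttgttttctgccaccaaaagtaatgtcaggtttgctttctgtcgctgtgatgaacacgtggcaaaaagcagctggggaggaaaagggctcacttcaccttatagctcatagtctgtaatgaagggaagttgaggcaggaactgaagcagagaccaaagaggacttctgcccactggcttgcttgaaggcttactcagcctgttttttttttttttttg

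In the files' own build, GRCm39, Hmgcs1 spans chr13:120151915-120169796 and Lss chr10:76367422-76392972. Dhcr7 spans chr7:143376882-143402147, and all 3 genes lie on the plus strand. In the Hmgcs1 promoter the SRE begins 137 bases before the start site, between 2 NF-Y boxes upstream and 1 nearer the start. Both strands of each 300-base window were searched for 5 motifs. Hmgcs1 was the only 1 of 21 genes with TCACNCCAC, which occurs in 1.44% of all 27025 genes with a window. CCAAT was found in 19 of 21 genes against 41.1% of all genes, and the Sp1 box GGGCGG in 20 of 21 against 38.2%. The E-box CACGTG was found in 5 of 21 genes (Hsd17b7, Sc5d, Dhcr7, Insig1 and Scap) against 8.09%. TAGGTCA was found in Dhcr7 only, in 2 overlapping windows that share the site, against 2.97% of all genes. None of the 5 motifs contains another, some genes have more than 1 window, and a match describes the letters only.

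Per length, the most abundant member in vehicle-treated cells was Srebf2, which encodes SREBP2, at 28.5 FPKM (fragments per kilobase, scaled to library size). Soat1, which esterifies cholesterol for storage, followed at 24.0 FPKM and the lysosomal cholesterol exporter Npc1 at 20.7 FPKM. Among the enzymes, Ebp stood at 16.2, Hmgcs1 at 7.79 (rank 10 of 26), Dhcr7 at 4.76 and Lss at 2.40 FPKM. The lowest was Fdps at 0.273 FPKM, a gene that overlaps another on the same strand, so reads may have been left out. In cells given SR9009 and LPS the order was different: Hmgcs1 was first at 60.4 FPKM, Srebf2 second at 56.3, and Dhcr7 had rank 23 at 3.94. These are means of 4 libraries from the deposited FPKM files, and the order was not tested.

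**Figure D1:**
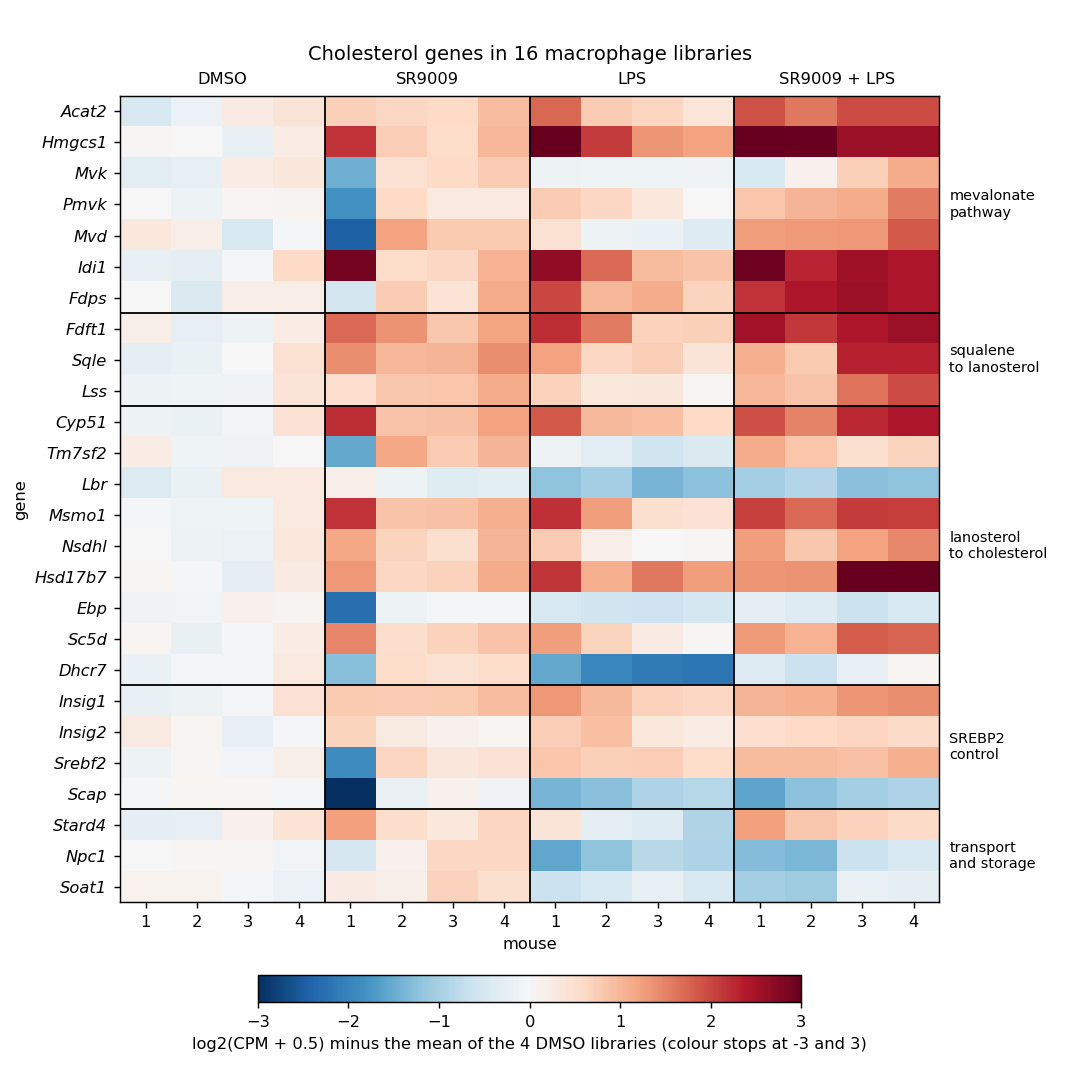
Level of the 26 genes (rows, in pathway order) in each of the 16 libraries (columns, grouped by treatment and numbered by mouse), as log2(CPM + 0.5) minus the mean of the 4 DMSO libraries. Most enzymes are red in the 3 treated groups, and Lbr and Scap are blue in all LPS-treated libraries. The SR9009 library of mouse 1 holds both the reddest and the bluest cells of its group, Idi1 (94.1 CPM) and Scap (4.18 CPM).

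The first question was how LPS alone moved the pathway. Of the 26 genes, 10 rose and 3 fell in LPS versus DMSO, against 19.4% of all tested genes that rose and 20.4% that fell. The risers lay along the whole route: Acat2, Hmgcs1, Idi1 and Fdps of the mevalonate section, squalene synthase Fdft1, the lanosterol-processing enzymes Cyp51, Msmo1 and Hsd17b7, and the SREBP2 retention genes Insig1 and Insig2. The genes that fell were Lbr, Dhcr7 and Npc1. The median log2 fold change of the 26 was 0.52, against -0.08 over all tested genes. In 9 genes every LPS library was above every DMSO library (27.0% of all tested genes) and in 7 every LPS library was below (30.5%), so separation of the groups was about as common among the 26 as in the transcriptome.

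In the mevalonate section, Hmgcs1, which makes HMG-CoA, moved most. It stood at 37.4, 36.0, 31.1 and 42.7 CPM in DMSO libraries of mice 1 to 4 and at 298, 157, 92.7 and 84.8 CPM after LPS. Every LPS library was above every DMSO library, and mice 1 and 2 responded more than mice 3 and 4. The rise was 4.30-fold (log2 2.10 ± 0.42 SE, n = 4 per group, adjusted p = 0.000855). Idi1, which isomerises isopentenyl diphosphate, went from 10.5, 9.92, 11.8 and 18.9 CPM to 80.6, 41.3, 24.2 and 22.6 CPM, with the same order of mice 1 and 2 above 3 and 4. Its rise was 3.29-fold (log2 1.72 ± 0.52 SE, adjusted p = 0.0143). Fdps, farnesyl diphosphate synthase, went from 1.18, 0.731, 1.40 and 1.41 CPM to 6.16, 2.82, 3.08 and 2.14 CPM. The groups did not overlap although the counts were few, 1093 over all 16 libraries, and the rise was 2.98-fold (log2 1.57 ± 0.42 SE, adjusted p = 0.0077).

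Acat2, the thiolase that joins the first acetyl-CoA units, stood at 9.33, 11.6, 15.8 and 17.5 CPM in DMSO and at 44.8, 22.9, 20.7 and 17.1 CPM after LPS. The groups overlapped, because mouse 4 had no rise, and the rise over all 4 mice was 1.94-fold (log2 0.96 ± 0.28 SE, adjusted p = 0.0128). The kinases Mvk and Pmvk and the decarboxylase Mvd, which carry mevalonate to isopentenyl diphosphate, did not pass the test, with log2 fold changes of -0.16, 0.47 and -0.07. In all 3 the groups overlapped.

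From squalene to lanosterol, Fdft1 went from 22.0, 16.2, 17.3 and 22.6 CPM to 91.2, 58.1, 31.4 and 31.9 CPM. No LPS library overlapped with DMSO and the rise was 2.72-fold (log2 1.44 ± 0.31 SE, adjusted p = 0.00153). The epoxidase Sqle and the lanosterol synthase Lss had positive estimates of 0.75 and 0.35 (log2) that did not pass, with adjusted p = 0.0777 and 0.292.

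From lanosterol to cholesterol the enzymes divided. The demethylase Cyp51 went from 28.6, 27.6, 30.0 and 43.0 CPM to 115, 62.6, 60.0 and 48.4 CPM, a 2.22-fold rise (log2 1.15 ± 0.34 SE, adjusted p = 0.0137). The methylsterol oxidase Msmo1 went from 43.8, 40.9, 41.1 and 55.4 CPM to 208, 107, 62.6 and 61.0 CPM, a 2.42-fold rise (log2 1.27 ± 0.37 SE, adjusted p = 0.0126). The sterol keto-reductase Hsd17b7 went from 8.28, 7.62, 6.38 and 9.50 CPM to 36.3, 17.3, 24.4 and 19.5 CPM, a 3.06-fold rise (log2 1.62 ± 0.40 SE, adjusted p = 0.00448). In these 3 genes the LPS libraries were all above the DMSO libraries. Dhcr7, which reduces 7-dehydrocholesterol to cholesterol, went the other way, from 24.6, 27.0, 27.7 and 34.7 CPM to 9.40, 6.86, 6.16 and 5.85 CPM. That 4.03-fold fall (log2 -2.01 ± 0.34 SE, adjusted p = 0.000212) was present in all 4 mice with no overlap.

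Lbr and Tm7sf2 encode reductases for the same sterol step, and Lbr is also a protein of the inner nuclear membrane. Lbr went from 42.9, 49.8, 69.8 and 69.5 CPM to 24.2, 27.9, 21.1 and 24.0 CPM, a 2.39-fold fall (log2 -1.26 ± 0.21 SE, adjusted p = 0.00016). Tm7sf2 stood at 9.15, 7.04, 7.25 and 7.86 CPM in DMSO and at 6.90, 6.10, 4.99 and 5.64 CPM after LPS. Its LPS libraries were all below DMSO by a small margin, and the estimate of -0.41 (log2) did not pass (adjusted p = 0.46). Nsdhl, Ebp and Sc5d did not pass, with estimates of 0.27, -0.56 and 0.63.

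Among the control genes, Insig1, an SREBP2 target that retains SCAP, went from 43.1, 45.4, 48.1 and 68.7 CPM to 125, 99.3, 82.0 and 78.4 CPM. All LPS libraries were above DMSO and the rise was 1.87-fold (log2 0.90 ± 0.20 SE, adjusted p = 0.00163). Insig2, its relative, went from 36.2, 31.3, 25.3 and 28.8 CPM to 50.3, 56.9, 37.7 and 35.3 CPM, higher in 4 of 4 mice with overlapping groups. The rise was 1.48-fold (log2 0.57 ± 0.20 SE, adjusted p = 0.0319), the call least steady of the 13: it was lost under 5 of 16 alternative settings.

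Srebf2 stood at 189, 217, 200.0 and 238 CPM in DMSO and at 375, 346, 354 and 310 CPM after LPS. The groups were far apart, yet the estimate of 0.71 ± 0.35 SE (log2) missed the threshold (adjusted p = 0.116). Scap stood at 49.2, 53.3, 52.4 and 48.8 CPM in DMSO and at 19.1, 21.0, 26.6 and 28.0 CPM after LPS, again with no overlap, and its estimate of -1.10 ± 0.47 SE missed it as well (adjusted p = 0.0754). Neither group of this comparison includes the SR9009 library of mouse 1, but the spread of each gene was estimated over all 16 libraries, and in that library both genes were several times lower than in the other SR9009 libraries. Without it the adjusted p was 0.000116 for Srebf2 and 1.72e-05 for Scap, with log2 fold changes of 0.70 and -1.12.

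For transport and storage, Npc1 went from 239, 249, 247 and 228 CPM to 81.7, 103, 134 and 127 CPM, a 2.16-fold fall in all 4 mice (log2 -1.11 ± 0.27 SE, adjusted p = 0.00373). The groups did not overlap. Soat1 and the cytosolic sterol carrier Stard4 did not pass, with estimates of -0.45 and -0.25. Over the list, 4 genes in place of 10 rose without mouse 2, where 13.5% of tested genes rose. When the SR9009 library of mouse 1 was left out, 6 in place of 3 fell (30.6% of tested genes). With upper-quartile scaling 9 rose and 5 fell, against 15.8% and 25.7% of tested genes.

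**Figure D2:**
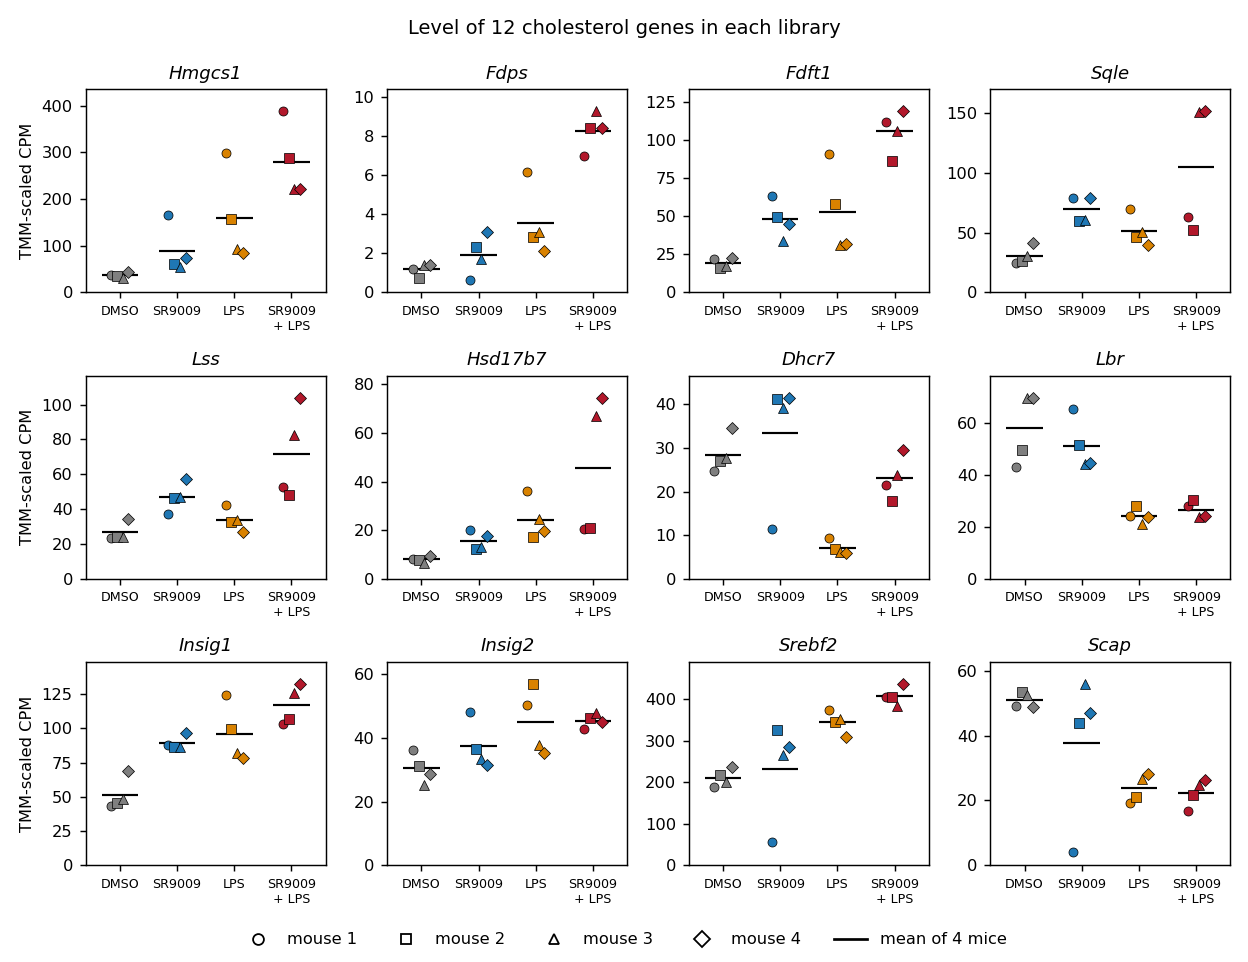
TMM-scaled CPM (y axis, starting at 0, with its own scale in each panel) of 12 genes in the 4 groups, 1 point per library with the mouse given by its shape, and a line at the mean of 4 mice. Dhcr7 is lowest in the LPS group (5.85 to 9.40 CPM) and stands at 17.8 to 29.5 CPM where SR9009 was given before LPS.

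The second question was whether SR9009 moved the pathway in cells without LPS. None of the 26 genes passed edgeR's test in SR9009 versus DMSO, where 0.313% of all tested genes rose. At an unadjusted p under 0.05 there were 13 members, all with higher values, against 11.7% of all tested genes in either direction. DESeq2 called 6 members higher (Fdft1, Sqle, Cyp51, Msmo1, Nsdhl and Insig1), where it called 0.953% of tested genes higher, and limma-voom called 0 members. Estimates were positive for 23 of 26 genes, with a median log2 fold change of 0.70 against 0.01 over all tested genes, where 50.6% were positive. In 12 of the 26 every SR9009 library was above every DMSO library, which held for 4.90% of all tested genes, and in 0 of the 26 every library was below (4.64%).

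The 12 genes without overlap were Acat2, Hmgcs1, Fdft1, Sqle, Lss, Cyp51, Msmo1, Nsdhl, Hsd17b7, Sc5d, Insig1 and Soat1, most of them enzymes after farnesyl diphosphate. Fdft1 stood at 63.6, 49.6, 34.1 and 44.9 CPM in the SR9009 libraries of mice 1 to 4, against at most 22.6 CPM in DMSO. Its estimate was 1.30 ± 0.31 SE (log2, adjusted p = 0.069), and with mouse as a block it was the 1 member to pass (log2 1.27, adjusted p = 0.0288, where 0.513% of tested genes rose). Sqle stood at 79.5, 60.2, 60.9 and 79.3 CPM against 24.4, 26.2, 30.3 and 41.5 CPM in DMSO, with an estimate of 1.19 ± 0.33 SE (adjusted p = 0.141). Lss stood at 37.4, 46.6, 47.2 and 57.3 CPM against 23.6, 24.1, 24.2 and 34.5 CPM, with an estimate of 0.83 ± 0.25 SE (adjusted p = 0.207). In each of these genes 4 of 4 mice were higher with SR9009. When the SR9009 library of mouse 1 was left out, the estimates were 1.09 for Fdft1 (adjusted p = 0.123), 1.08 for Sqle (0.182) and 0.87 for Lss (0.114).

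Cyp51 stood at 149, 57.6, 58.6 and 73.9 CPM with SR9009 (estimate 1.39 ± 0.34 SE, adjusted p = 0.0849), and Insig1 at 87.9, 86.2, 86.6 and 96.6 CPM (estimate 0.80 ± 0.20 SE, adjusted p = 0.0807). Insig1 varied little between these mice, whereas Cyp51 in mouse 1 was far above the other 3. On the other 15 libraries the estimate was 0.93 for Cyp51 (adjusted p = 0.162) and 0.76 for Insig1 (0.0637). Hmgcs1 was similar to Cyp51, at 167, 61.7, 53.9 and 73.0 CPM, with an estimate of 1.27 ± 0.41 SE (adjusted p = 0.235) that became 0.73 without the library of mouse 1. Idi1 stood at 94.1, 18.4, 19.3 and 25.9 CPM, and its estimate of 1.62 became 0.68 without that library.

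Of the remaining enzymes without overlap, Msmo1 stood at 204, 82.0, 83.6 and 93.9 CPM with SR9009 against at most 55.4 CPM in DMSO (estimate 1.36 ± 0.37 SE, adjusted p = 0.145). Sc5d, the desaturase before Dhcr7, stood at 94.9, 49.7, 55.6 and 62.0 CPM against 29.1 to 39.8 CPM (estimate 0.93 ± 0.28 SE, adjusted p = 0.203). Hsd17b7 stood at 20.0, 12.3, 12.9 and 17.8 CPM against 6.38 to 9.50 CPM (estimate 0.98 ± 0.40 SE, adjusted p = 0.366). Mouse 1 was again the highest of the SR9009 libraries in all 3, and without it the estimates were 0.89, 0.65 and 0.81. Nsdhl stood at 35.5, 25.0, 21.8 and 31.7 CPM against 13.7 to 19.6 CPM (estimate 0.86 ± 0.23 SE, adjusted p = 0.135), and Acat2 at 22.1, 20.4, 20.1 and 25.4 CPM against 9.33 to 17.5 CPM (estimate 0.70 ± 0.28 SE, adjusted p = 0.366). These became 0.70 for Nsdhl (adjusted p = 0.186) and 0.65 for Acat2 (0.481) with the library of mouse 1 left out.

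Counted by library, 17 of the 19 enzymes were above their DMSO mean in the SR9009 libraries of mice 2, 3 and 4, and 12 in that of mouse 1. After LPS alone the number was 14, 13, 12 and 13 in mice 1 to 4, and with both agents 15, 16, 16 and 17. The DMSO libraries themselves had 7, 1, 6 and 18 enzymes above that mean, so a vehicle library reached 18. The same count over all tested genes was not made. The median enzyme stood at 0.68, 0.66, 0.57 and 0.99 (log2 over the DMSO mean) with SR9009 and at 1.18, 0.61, 0.33 and 0.03 with LPS alone, so the LPS libraries differed more between mice. With both agents the median enzyme stood at 1.24, 1.03, 1.81 and 1.92, above the other groups in each mouse. In the DMSO libraries it stood at -0.05, -0.17, -0.10 and 0.26.

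The SR9009 library of mouse 1 was low for other members. Mvd stood at 4.04 CPM in it and at 42.1 to 56.9 CPM in the other 3 SR9009 libraries, and Tm7sf2 at 2.37 against 13.6 to 17.9 CPM. Srebf2 stood at 56.4, 326, 266 and 285 CPM, and Scap at 4.18, 43.9, 55.9 and 46.9 CPM, against 48.8 to 53.3 CPM in DMSO. Dhcr7 stood at 11.4, 41.3, 39.2 and 41.6 CPM, above the DMSO range of 24.6 to 34.7 CPM in mice 2, 3 and 4 only. Over all 4 mice the estimates were 0.55 for Mvd, 0.69 for Tm7sf2, 0.15 for Srebf2, -0.43 for Scap and 0.23 for Dhcr7, and without this library they were 0.88, 0.98, 0.43, -0.10 and 0.47. Without this library 1 member passed, Tm7sf2 (log2 0.98, adjusted p = 0.0133, where 0.696% of tested genes rose), and the median of the 26 was 0.67. Estimates were again positive for 23 of 26. With the block and without this library 5 members passed, Mvd, Fdft1, Tm7sf2, Nsdhl and Insig1, where 1.72% of tested genes rose.

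The third question was what SR9009 given first did in LPS-treated cells. In SR9009 with LPS versus LPS, 2 of 26 genes rose, Dhcr7 and Lss, and 0 fell, where 1.06% of all tested genes rose. Estimates were positive for 24 of 26 genes, including all 19 enzymes, with a median of 0.86 against 0.02 over all tested genes. In 9 genes (Pmvk, Mvd, Fdps, Lss, Tm7sf2, Nsdhl, Dhcr7, Srebf2 and Stard4) every library with both agents was above every LPS library, against 6.66% of all tested genes. In 0 genes was every library below, against 7.78%.

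Dhcr7 stood at 21.5, 17.8, 23.8 and 29.5 CPM with both agents, against 9.40, 6.86, 6.16 and 5.85 CPM with LPS alone. The groups were well apart in all 4 mice, and with both agents the gene was near the DMSO range. The rise was 3.28-fold (log2 1.71 ± 0.34 SE, adjusted p = 0.0158). Lss stood at 52.8, 47.9, 82.6 and 104.0 CPM, against 42.4, 32.7, 33.5 and 27.0 CPM with LPS alone, with mice 3 and 4 much higher than 1 and 2. Its rise was 2.12-fold (log2 1.08 ± 0.25 SE, adjusted p = 0.0403).

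The number of calls in this comparison depended on which libraries were used. With mouse as a block 5 genes rose, Fdft1, Lss, Nsdhl, Dhcr7 and Stard4, where 2.20% of tested genes rose. Without the SR9009 library of mouse 1, which is in neither group here but enters the estimate of the spread, 12 genes rose (6.68% of tested genes). Without mouse 1 as a whole 18 genes rose (4.20%). Without mouse 2, 3 or 4, edgeR called 0 members in each case, where 0.155%, 0.0372% and 0.0149% of tested genes rose. At an unadjusted p under 0.05 there were 12, 7 and 5 members, against 7.65%, 9% and 8.37% of tested genes in either direction. DESeq2 on all libraries called 6, where it called 2.71% of tested genes higher.

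Among the other genes that passed with the block, Nsdhl, a sterol dehydrogenase, stood at 37.7, 27.7, 36.6 and 43.3 CPM with both agents against 26.7, 17.8, 15.4 and 15.8 CPM with LPS. The groups were apart, and the estimate was 0.94 ± 0.24 SE (log2, adjusted p = 0.0557, and 0.0187 with the block). Stard4, which carries sterol between membranes, stood at 124, 92.7, 85.5 and 77.7 CPM against 69.3, 43.5, 40.1 and 28.0 CPM, with an estimate of 1.07 ± 0.28 SE (adjusted p = 0.073, and 0.0352 with the block). In both groups mouse 1 had the highest Stard4. Fdft1 stood at 112, 86.1, 106 and 119 CPM, with an estimate of 1.00 ± 0.31 SE (adjusted p = 0.122, and 0.0379 with the block), and the groups overlapped because LPS alone reached 91.2 CPM in mouse 1.

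In the mevalonate section Mvd stood at 58.6, 59.8, 60.5 and 88.6 CPM with both agents against 33.5, 21.7, 21.2 and 18.6 CPM with LPS. It had the second largest estimate of the list, 1.49 ± 0.50 SE (log2), but did not pass (adjusted p = 0.158, and 0.000952 without the SR9009 library of mouse 1). Fdps stood at 6.99, 8.42, 9.29 and 8.41 CPM, above the LPS range of 2.14 to 6.16 CPM (estimate 1.22 ± 0.41 SE, adjusted p = 0.163). Hmgcs1 stood at 388, 287, 221 and 221 CPM, higher than with LPS in each mouse but with overlapping groups (estimate 0.82 ± 0.40 SE, adjusted p = 0.395).

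Among the later enzymes, Tm7sf2 stood at 17.4, 14.3, 11.0 and 12.7 CPM with both agents against 4.99 to 6.90 CPM with LPS (estimate 1.23 ± 0.41 SE, adjusted p = 0.159). Sc5d stood at 83.7, 70.9, 122 and 116 CPM, overlapping with the LPS libraries through mouse 1 (estimate 0.88 ± 0.28 SE, adjusted p = 0.142), and Ebp at 32.0, 29.4, 24.6 and 28.1 CPM, close to its LPS level (estimate 0.13 ± 0.33 SE). The partner of Tm7sf2 in the sterol reductase step, Lbr, stood at 27.9, 30.5, 23.7 and 24.1 CPM, higher in 4 of 4 mice but close to the LPS values of 21.1 to 27.9 CPM (estimate 0.13 ± 0.20 SE, adjusted p = 0.87). Sqle, at 63.6, 52.0, 151 and 152 CPM, and Hsd17b7, at 20.4, 21.0, 67.1 and 74.5 CPM, split into 2 pairs of mice. Mice 3 and 4 were both above mice 1 and 2 for 15 of the 26 genes with both agents, against 37.3% of all tested genes, whereas with LPS alone mice 1 and 2 were both above 3 and 4 for 16 of the 26, against 32.1%. In DMSO mice 3 and 4 were both above for 13 of the 26 (27.7% of all tested genes) and both below for 3 (34.8%). With SR9009 alone these numbers were 6 (24.7%) and 3 (20.3%). The part of this split in the results was not tested beyond leaving out each mouse.

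The control genes differed less. Insig1 stood at 103, 107, 126 and 132 CPM with both agents and overlapped with LPS (estimate 0.29 ± 0.19 SE, adjusted p = 0.584). Insig2 stood at 42.8, 46.1, 47.7 and 44.9 CPM, inside the LPS range (estimate 0.01 ± 0.20 SE). Srebf2 stood at 406, 406, 384 and 437 CPM, just above the highest LPS library at 375 CPM (estimate 0.24 ± 0.35 SE, adjusted p = 0.851). Scap, at 16.7, 21.6, 24.7 and 26.4 CPM, was as low as with LPS alone (estimate -0.09 ± 0.47 SE).

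**Figure D3:**
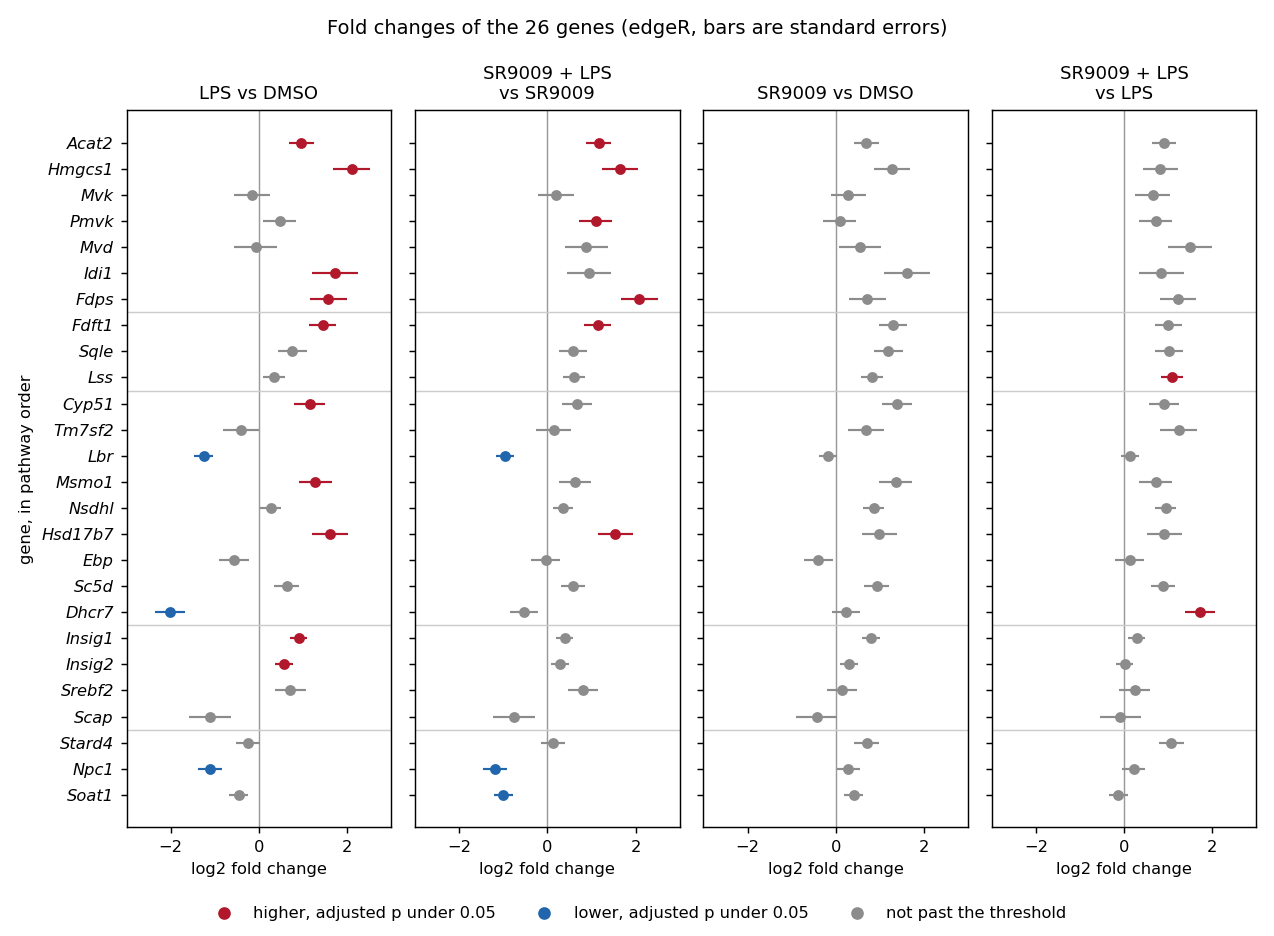
Log2 fold change (x axis) of each of the 26 genes (y axis, in pathway order) in 4 comparisons, with bars of 1 SE and colour for genes past an adjusted p of 0.05 in edgeR's quasi-likelihood test. The 2 comparisons on the left test LPS, with 10 and 6 genes higher, and the 2 on the right test SR9009, where the enzymes lie to the right of 0 in most cases but only Lss and Dhcr7 pass.

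LPS was also compared with no LPS among SR9009-treated cells. In SR9009 with LPS versus SR9009, 6 of 26 genes rose and 3 fell, against 14.5% and 15.8% of all tested genes. In 9 genes every library with both agents was above every SR9009 library (13.9% of tested genes) and in 2, Lbr and Soat1, every library was below (13.4%). This comparison shares no library with LPS versus DMSO. Acat2, Hmgcs1, Fdps, Fdft1 and Hsd17b7 rose in both, and Lbr and Npc1 fell in both. Fdps rose 4.23-fold (log2 2.08 ± 0.42 SE, adjusted p = 0.00139), Hmgcs1 3.15-fold (log2 1.65 ± 0.41 SE, adjusted p = 0.00616) and Hsd17b7 2.91-fold (log2 1.54 ± 0.40 SE, adjusted p = 0.00797). With the SR9009 library of mouse 1 left out, the log2 fold changes were 1.86 for Fdps, 2.22 for Hmgcs1 and 1.73 for Hsd17b7, and all 3 passed.

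Acat2 stood at 51.0, 40.4, 52.8 and 52.7 CPM with both agents against 22.1, 20.4, 20.1 and 25.4 CPM with SR9009, a 2.24-fold rise (log2 1.16 ± 0.28 SE, adjusted p = 0.00514). Fdft1 rose 2.21-fold (log2 1.14 ± 0.31 SE, adjusted p = 0.00987). Fitted on the other 15 libraries, the values were 1.23 for Acat2 (adjusted p = 0.00495) and 1.37 for Fdft1 (0.00369). Pmvk, phosphomevalonate kinase, stood at 23.3, 26.3, 28.4 and 38.6 CPM against 3.27, 19.7, 15.7 and 15.7 CPM, a 2.14-fold rise (log2 1.10 ± 0.38 SE, adjusted p = 0.0372). The low value is again mouse 1, and without its SR9009 library the estimate was 0.84 (adjusted p = 0.00427).

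Lbr stood at 65.3, 51.3, 44.2 and 44.4 CPM with SR9009 and was 1.93-fold lower with both agents (log2 -0.95 ± 0.20 SE, adjusted p = 0.00214). Idi1 did not pass (estimate 0.95 ± 0.50 SE, adjusted p = 0.174), but did with mouse as a block (1.23, adjusted p = 0.0338) and with the SR9009 library of mouse 1 left out (1.90, adjusted p = 0.00169). Npc1 stood at 98.1, 92.5, 155 and 173 CPM with both agents against 170, 265, 372 and 370.0 CPM with SR9009, a 2.27-fold fall in 4 of 4 mice (log2 -1.18 ± 0.27 SE, adjusted p = 0.00332). Soat1 stood at 120, 115, 209 and 201 CPM against 287, 275, 389 and 336 CPM, a 1.99-fold fall without overlap (log2 -0.997 ± 0.22 SE, adjusted p = 0.00237). With the SR9009 library of mouse 1 left out, the log2 fold changes were -0.75 for Lbr, -1.31 for Npc1 and -0.99 for Soat1, and all 3 passed. Dhcr7 did not pass here (estimate -0.53 ± 0.32 SE, adjusted p = 0.237, and -0.75 with adjusted p = 0.0057 without the SR9009 library of mouse 1). Without that library 12 members rose and 5 fell, against 22.7% and 20.8% of tested genes. Without mouse 1 as a whole 15 members rose (22.4% of tested genes), and without mouse 2, 3 or 4 the risers were 3, 2 and 3 (9.68%, 10.0% and 10.1%).

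Whether the SR9009 effect differed with LPS was tested as the interaction, in which the effect without LPS is subtracted from the effect with it. edgeR called 0 of 26 members, where 1 of all tested genes passed, with a negative interaction (0.00744%). At an unadjusted p under 0.05 there was 1 member, against 7.14% of all tested genes. DESeq2 and limma-voom also called 0 members. That 1 member was Dhcr7, with an interaction of 1.48 ± 0.46 SE (log2, adjusted p = 0.438). With mouse as a block it was 1.48 (adjusted p = 0.351), and without the SR9009 library of mouse 1 it was 1.27 (adjusted p = 0.0565). With the block and without that library it was 1.24 (adjusted p = 0.0382), where 1.19% of tested genes passed with a positive interaction. Dhcr7 passed in that last fit only. The effect of SR9009 on the other 25 genes was not shown to differ between cells with and without LPS in any fit.

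The SR9009 effects without and with LPS were measured in libraries that are not shared, though in the same mice. Both were positive for 22 of 26 genes and both negative for 1, Scap. Across the 26 genes, which are not independent replicates, Pearson's r between the estimates was 0.49 and Spearman's rho 0.412, which became 0.672 and 0.704 when the SR9009 library of mouse 1 was left out. Idi1 and Cyp51 had larger estimates without LPS (1.62 and 1.39) than with it (0.84 and 0.91), and Mvd and Dhcr7 larger ones with LPS (1.49 and 1.71) than without (0.55 and 0.23). Without that library the estimates without and with LPS were 0.68 and 0.87 for Idi1 and 0.93 and 0.94 for Cyp51, so the order of these 2 genes was not kept. They were 0.88 and 1.52 for Mvd and 0.47 and 1.74 for Dhcr7.

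**Figure D4:**
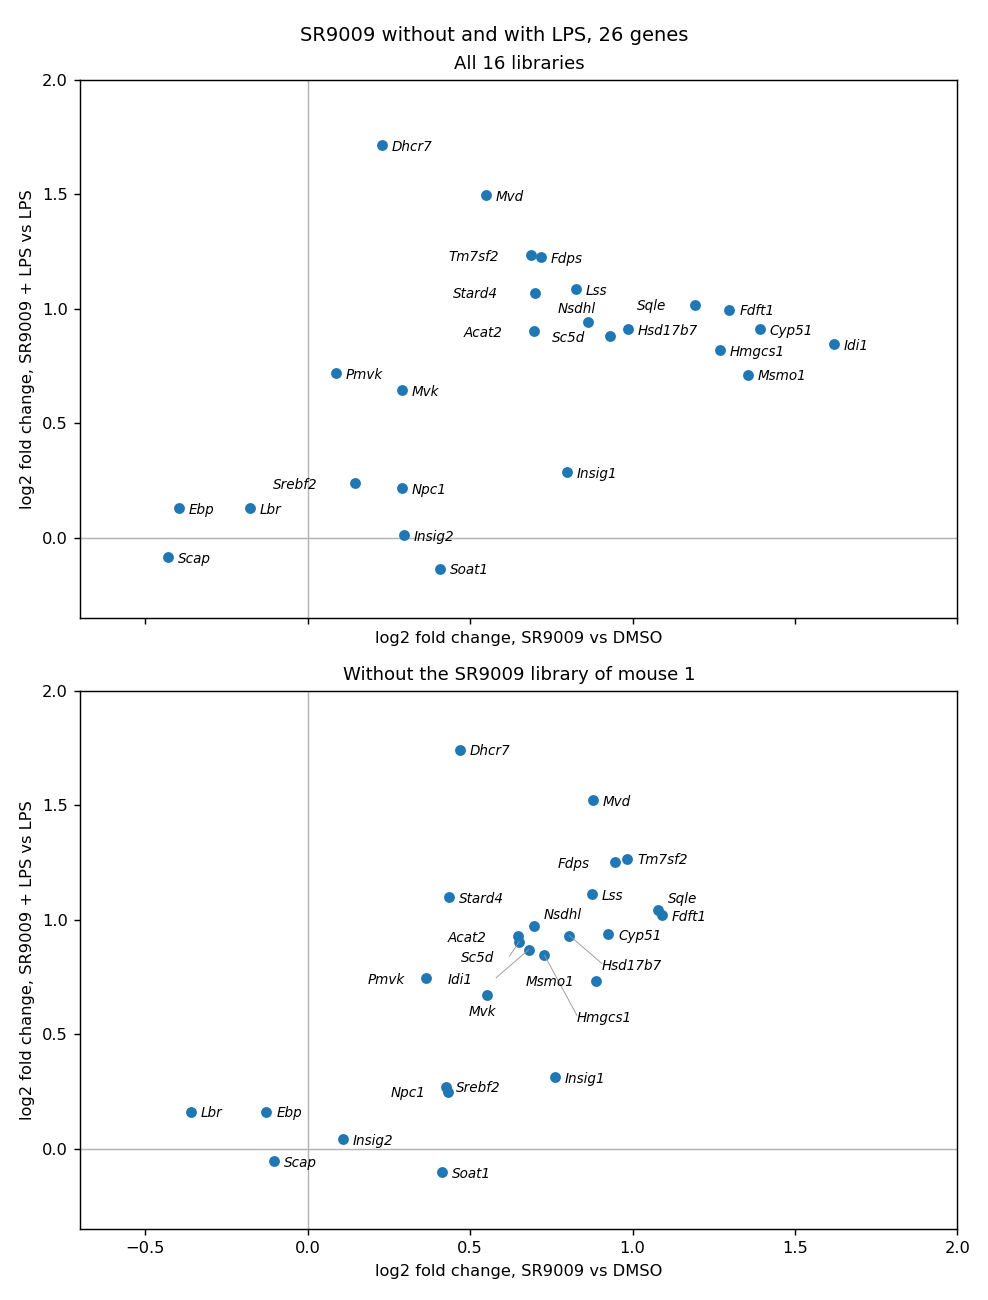
Log2 fold change of SR9009 versus DMSO (x axis) against SR9009 with LPS versus LPS (y axis) for the 26 genes, with all 16 libraries (top) and without the SR9009 library of mouse 1 (bottom). 22 of 26 genes lie above and to the right of 0 in both panels, Dhcr7 is highest, and Idi1 moves from 1.62 to 0.68 on the x axis when the library is left out.

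Other genes around the pathway were read from 6 lists of 55 genes, of which 48 passed the filter. In SR9009 versus DMSO 0 of the 48 passed in edgeR. In SR9009 with LPS versus LPS 2 rose and 0 fell, against 1.06% and 0.737% of all tested genes. With mouse as a block 1 fell in the latter comparison, where 1.78% of tested genes fell. It was Rnf145 (log2 -0.73, adjusted p = 0.0677, and 0.0356 with the block). With the SR9009 library of mouse 1 left out, 1 of the 48 rose in SR9009 versus DMSO, Soat2 (adjusted p = 0.00705, where 0.696% of tested genes rose). In SR9009 with LPS versus LPS 3 were then called higher (Acss2, Lipa and Pgrmc1) and 3 lower (Rnf145, Gramd1a and Ch25h). These counts were near the shares of all tested genes, 6.68% and 4.79%. Acss2, which makes cytosolic acetyl-CoA from acetate, was at 69.2 ± 8.23 CPM (SD, n = 4) with both agents and at 19.7 ± 8.94 CPM with LPS (log2 1.82 ± 0.41 SE, adjusted p = 0.0363). Lipa, the lysosomal lipase that frees cholesterol from its esters, was at 633 ± 264 CPM with both agents and at 239 ± 24.1 CPM with LPS (log2 1.40 ± 0.27 SE, adjusted p = 0.0135). Of 11 genes that handle SREBP proteins, LPS versus DMSO raised 2 and lowered 1, against 19.4% and 20.4% of all tested genes. Rnf145, a sterol-responsive ubiquitin ligase, went from 73.9 ± 15.2 to 267 ± 39.0 CPM (log2 1.85 ± 0.19 SE, adjusted p = 2.49e-06). Sar1a rose (log2 0.67) and the protease gene Mbtps1 fell (log2 -0.85). With the block 4 of the 11 rose, where 21.3% of tested genes rose. Those added were Rnf139 (log2 0.64, adjusted p = 0.167, and 0.0409 with the block) and Sec23a (log2 0.88, adjusted p = 0.0517, and 0.0277 with the block).

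Of 12 further transport and storage genes, 5 rose and 5 fell with LPS, against 19.4% and 20.4% of all tested genes. Among them were Stard5 (log2 2.36) and Gramd1a (2.38) upward and Nceh1 (-1.31) downward. Ch25h, which makes 25-hydroxycholesterol, went from 7.02 ± 1.86 to 201 ± 65.1 CPM with LPS (log2 4.84 ± 0.54 SE, adjusted p = 4.49e-06). With both agents it was at 58.2 ± 31.4 CPM, which did not pass against LPS alone (log2 -1.79 ± 0.47 SE, adjusted p = 0.0709). The adjusted p was 0.0632 with the block and 0.0114 without the SR9009 library of mouse 1. Of 11 tested isoprenoid branch genes 3 rose (Pdss1, Nus1 and Pggt1b), of 6 acetyl-CoA and thiolase genes 1 rose (Acat3), and of 6 other sterol enzymes 1 rose (Hsd17b12). The share over all tested genes was 19.4%. With the block Cyb5r3 of the last list rose as well (log2 0.78, adjusted p = 0.051, and 0.0378 with the block), and the oxysterol enzyme gene Cyp27a1 fell (log2 -1.57, adjusted p = 0.103, and 0.0143 with the block). Acat3 is a close relative of Acat2, and reads could be shared between them. It stood at 0.127 ± 0.066 CPM in DMSO and at 4.73 ± 2.49 CPM with LPS.

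Some members share ground with other genes, and how such reads were counted is not given in the sources used here. Fdft1 overlaps Ctsb on the opposite strand, which had 2950284 counts against 16618 for Fdft1. Ctsb itself had estimates of 0.13 with LPS, 0.22 with SR9009 and 0.07 with SR9009 added to LPS, against 1.44, 1.30 and 1.00 for Fdft1. Whether shared reads entered the counts of Fdft1 was not tested. Tm7sf2 overlaps Vps51 on the same strand (16572 counts against 3454), whose estimates were -0.07, -0.38 and -0.22. Cyp51 overlaps Akap9, and Npc1 overlaps Rmc1, both on the opposite strand. Fdps overlaps a coding gene on the same strand that has 0 counts, so none of the shared reads were given to that gene. Whether they were counted for Fdps or left out was not tested, and its low level carries this doubt. Idi1 has 5 named pseudogenes with at most 186 counts each, against 11915. Mvk, Mvd, Fdps, Sqle, Tm7sf2, Nsdhl, Hsd17b7, Ebp, Sc5d, Dhcr7, Insig1, Srebf2 and Scap have another counted gene within 1000 bases. Beside Fdps lies Rusc1 on the same strand, with 1773 counts against 1093. In LPS versus DMSO Ptpn23 beside Scap rose (log2 1.17) while Scap was lower. Hmgcs1, Lss, Lbr, Insig2 and Soat1 overlap genes with at most 47 counts each.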

How the data were processed

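Poly(A) RNA of 16 libraries was sequenced. The submitters' processing notes name HISAT2 for alignment and GRCm39 as the build. For the aligner version, counting tool, strandedness and annotation, nothing is given in the sources used here. Raw counts per gene were deposited in 1 table for all libraries. FPKM values, scaled by library size, were deposited by the authors in 1 file per library.

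filterByExpr (4 groups, with a minimum count of 10 and total of 15) left 13438 genes, whose counts were fitted with edgeR 4.0.16 in R 4.3.3. The model was a robust quasi-likelihood fit with TMM scaling and 1 mean per group, the common biological coefficient of variation was 0.377, and a gene was called at a Benjamini-Hochberg adjusted p under 0.05 over all tested genes. A fold change is between groups of 4 libraries, and its SE is the log2 fold change over the root of its F statistic. CPM used TMM-scaled library sizes. DESeq2 1.42.0 and limma 3.58.1 were alternatives, with other scalings, filters, FPKM on the log2 scale with a pseudocount of 1 or 0.1, and left-out libraries. Tables and figures used Python 3.11.15, pandas 2.3.3, numpy 2.4.6 and matplotlib 3.10.9. The fit was checked on simulated data.

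The mouse number in the titles pairs the libraries, since each mouse gave 1 library to every group: 24 of 24 same-mouse pairs deviated together (r 0.0809 to 0.56, median 0.249), against 23 of 72 pairs from different mice. The main model has no block, and the blocked value is given where it changes the call of a member, or of another list's gene in a count that is reported.

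The 26 genes, the other lists, the 5 motifs and the settings were chosen with earlier results of these data known. By rule, every member is accounted for. Each has an estimate in LPS versus DMSO, and the other comparisons give estimates for part of the members. Library values are given for members called with or without the block and for Insig1, Insig2, Srebf2, Scap, Lbr and Tm7sf2. From other lists the called genes with the smallest p are named. Values of other members were added to show the spread. Promoter windows come from RefSeq on GRCm38.p6, another build than that of the files, so no coordinates were mixed.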

Additional observations from a re-analysis of the deposited data

Results flagged for a closer look

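In each group of 4 libraries a member was singled out when its highest or lowest library lay far from the other 3. This held for 11 of 104 gene and group combinations. By chance the rule singles out about 1 in 20 independent combinations. These combinations share libraries and are not independent, so whether 11 is more than chance gives was not tested. Of the 11, 5 were the SR9009 library of mouse 1.

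In that library Hmgcs1 stood at 166.5 CPM (53.9 to 73.0 CPM in the other 3 SR9009 libraries), Idi1 at 94.1 (18.4 to 25.9) and Msmo1 at 204.4 (82.0 to 93.9). Ebp, the sterol isomerase, stood at 7.67 CPM (34.6 to 37.8) and Dhcr7 at 11.4 (39.2 to 41.6), so members were both above and below. Insig1 was highest in mouse 4 of the SR9009 group, at 96.6 CPM against 86.2 to 87.9.

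With SR9009 and LPS, mouse 2 was low for Acat2 (40.4 CPM against 51.0 to 52.8) and Msmo1 (146.8 against 187 to 193), and mouse 4 was high for Mvd (88.6 against 58.6 to 60.5). In DMSO, mouse 4 was high for Lss (34.5 against 23.6 to 24.2) and Cyp51 (43.0 against 27.6 to 30.0).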

How the results depend on the processing

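Of 384 estimates of called members (24 calls under 16 alternatives), 349 kept their direction and call, 35 kept the direction and lost the call, and 0 changed direction. Hmgcs1, Fdft1, Hsd17b7, Insig1, Lbr, Dhcr7 and Npc1 in LPS versus DMSO and Fdps, Lbr, Npc1 and Soat1 in SR9009 with LPS versus SR9009 kept the call under all 16. Lss, in SR9009 with LPS versus LPS, lost it under 7 (with no filter, limma-voom, FPKM plus 0.1, the compared groups alone, and without mouse 2, 3 or 4), and Dhcr7 there without mouse 2, 3 or 4.

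Shares in brackets are those of all tested genes called in the same direction by the same fit. Members higher in LPS versus DMSO were 4 to 10 when a mouse was left out (13.5% to 25%), and members lower 3 to 6 (12.5% to 28.4%). Members lower were 5 with upper-quartile scaling (25.7%), which moved the median of all genes from -0.08 to -0.28. Fitting the compared groups alone gave 6 (32.4%), and dropping the mouse 1 library of the SR9009 group gave 6 (30.6%). Adding the replicate block to the latter fit gave 7 (35.4%). In SR9009 versus DMSO members higher were 6 by DESeq2 (0.953%) and 1 with the replicate block (0.513%). They were 5 with the block and without the SR9009 library of mouse 1 (1.72%) and 1 without that library alone (0.696%). Without a mouse they were 0 to 2 (0.00743% to 0.56%). In SR9009 with LPS versus LPS they were 6 by DESeq2 (2.71%) and 1 with no filter (0.327%). On log2 FPKM plus 1 and plus 0.1 they were 4 and 1 (0.744% and 0.811%), and with the replicate block 5 (2.2%). They were 13 with the block and without that library (11.6%) and 12 without it alone (6.68%). Without a mouse they were 0 to 18 (0.0149% to 4.2%). In SR9009 with LPS versus SR9009, members higher and lower were 12 and 6 with the block and without that library (25% and 25.1%). They were 12 and 5 without it alone (22.7% and 20.8%). Without a mouse they were 2 to 15 (9.68% to 22.4%) and 3 to 6 (8.31% to 20.6%). The interaction gave 1 member higher with the block and without that library (1.19%). Its median over members ran from -0.08 to 0.45 without a mouse (-0.0844 without mouse 4, -0.0033 without mouse 3). The replicate block also added Idi1 to the risers of SR9009 with LPS versus SR9009 and changed no other call of a member than those given. The causes of these shifts were not tested, beyond fewer libraries in the fits that leave some out.

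Counting depth limits Fdps most, with 1093 counts in all. Whether reads shared with the gene it overlaps are among them was not tested.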
